A study of Bos taurus with 12 samples.

Results

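CLEC4E and 9 related C-type lectin genes (CLEC4D, CLEC4A, CLEC7A, CLEC12A, CLEC1A, CLEC1B, CLEC2D, CLEC3B and CLEC5A) were followed across 12 one-colour arrays of bovine endometrium. Members were taken by gene symbol, and 9 of the 10 were found, as 11 of the 26323 transcripts on the array; CLEC2D, which encodes a ligand of the natural killer cell receptor KLRB1, was matched to no probe and is not analysed here. CLEC4E itself was chosen by its measured difference between old and young cows on these arrays, so its differences between groups are given as descriptions with no test, and the other members were taken by name.

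The study asked how ageing alters the endometrium of the cow. Intercaruncular endometrium was biopsied on Day 15 of a synchronised estrous cycle in 4 old females (OF), 13 to 14 years old and nulliparous, and in 4 young females (YF), 4 to 5 years old and primiparous. All OF and YF were Holstein clones derived from the cells of 1 donor cow, so that age and parity cannot be told apart and the animals stand for 1 genotype. The labels also give 4 contemporary cows, whose age, parity and origin are not given in the sources used here. Contemporary 1111 is marked in the labels as left out for a divergent phenotype, and its values stand here beside the groups but enter no group mean. Levels are log2 of the processed Cy3 intensity minus the 75th percentile of the same array, so that 0 is the intensity that 1 probe in 4 exceeded, and levels are compared between animals, not between genes. A probe is called measured where the scanner software marked it as well above background. The share of spots so marked ranged from 71.6 to 74.9% per array.

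C-type lectin receptors of the CLEC4, CLEC7 and CLEC12 families are surface proteins of myeloid cells that recognise sugars and lipids of microbes and of damaged cells. CLEC4E, also called Mincle, binds glycolipids such as mycobacterial cord factor and signals through the adaptor FCER1G to the kinase SYK and the CARD9, BCL10 and MALT1 complex, which drives NF-kB and inflammatory cytokines. In the uterus these receptors are known chiefly from macrophages, dendritic cells and neutrophils of the stroma.

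CLEC4E lies on chromosome 5 of the bovine assembly UMD3.1, at chr5:102158068-102168602, next to CLEC4D (chr5:102144410-102152592) and CLEC4A (chr5:102076231-102089108), while CLEC7A, CLEC1A, CLEC1B and CLEC12A lie in a second group on the same chromosome. Its level rests on 2 probes of 60 bases, shown because every CLEC4E value below is their mean. Whether they also bind the product of another gene was not tested, as no transcript sequences of this assembly were used here, and each CLEC4E value is the signal of these probes. Capitals mark the longest run that each shares with a probe of any other gene on the array, which was 13 bases in both.

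CLEC4E probe 1: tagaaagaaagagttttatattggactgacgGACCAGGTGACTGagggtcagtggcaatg

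CLEC4E probe 2: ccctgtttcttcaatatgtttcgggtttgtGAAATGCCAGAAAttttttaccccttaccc

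The probes shared no run longer than 5 bases with each other, and yet they rose and fell together (Pearson r = 0.983 over the 11 arrays, as a description). Probe 2 was brighter than probe 1 in all 11 arrays, by 0.07 to 1.92 log2 units. In OF 2258 (0.07) neither probe was well above background, and in contemporary 1068 (1.92) probe 1 was not.

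CLEC4E varied widely between animals. In YF its level was -3.44 in 1069, -1.91 in 1070, -5.34 in 1072 and 0.14 in 1127. In OF it was -5.54 in 0233, -3.25 in 0234, -4.67 in 0245 and -7.79 in 2258, where neither probe was well above background. In the contemporary cows it was -6.29 in 1068, where probe 1 was not well above background, -0.41 in 1128 and -0.79 in 1129. Contemporary 1111 was at -3.36. Thus the groups overlapped, since OF 0234 stood above YF 1069 and 1072, and the lowest contemporary cow stood below 3 of the 4 OF.

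The span within YF alone was 5.49 log2 units, a 44.9-fold difference between 2 animals of 1 genotype. Over the 11 arrays kept the span was 7.94 log2 units, and 19 of the 20164 transcripts measured in at least 1 whole group (0.0942%) spanned more. The median span of those transcripts was 1.11 log2 units. The CLEC4E span holds the OF and YF difference by which the gene was chosen, so its rank is only a description. Its low end, OF 2258, was not well above background.

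**Figure D1:**
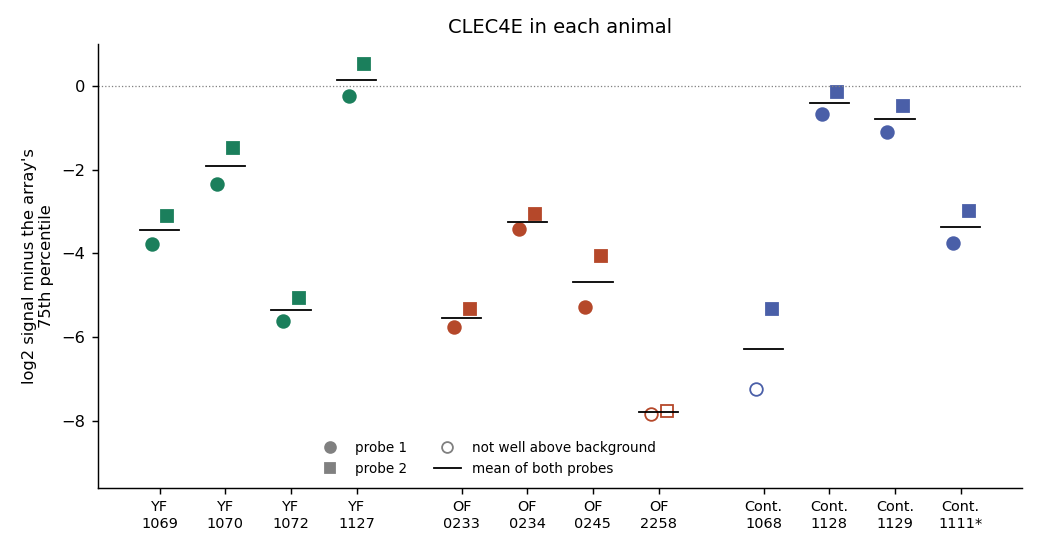
CLEC4E in each animal, as log2 intensity minus the 75th percentile of the array (y axis), with 1 column for each cow; circles are probe 1, squares probe 2, lines their mean, and open symbols are not well above background. The asterisk marks contemporary 1111, and the levels run from -7.79 in OF 2258 to 0.14 in YF 1127 with the groups overlapping.

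On average CLEC4E was lower in OF (-5.31 ± 1.91, SD, n = 4) than in YF (-2.64 ± 2.33, SD, n = 4), a log2 difference of -2.68. The gene was measured on 4 of 4 YF arrays and 3 of 4 OF arrays. The difference was -1.75 without YF 1127 and -1.51 with normexp background correction. In bulk tissue, fewer cells that hold a transcript and less transcript per cell cannot be told apart.

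The contemporary cows averaged -2.50 ± 3.29 (SD, n = 3). CLEC4E differed from YF by 0.14, and that sign turned in 7 of 16 alternatives. Against OF, whose low values were part of the choice of CLEC4E, the difference was 2.82. It ranged from 1.77 without contemporary 1128 to 4.71 without contemporary 1068.

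Of the receptors that act with CLEC4E, CLEC4D was not detected at this signal. CLEC4D, also called MCL, binds cord factor too and forms a complex with CLEC4E. None of the 12 arrays had a CLEC4D probe well above background, and its values stayed between -8.89 and -7.04 over the 11 arrays, including the 3 animals in which CLEC4E exceeded -1. CLEC5A, a receptor that signals through TYROBP, was likewise at background on all 12 arrays (-8.87 to -8.04). CLEC6A, or dectin-2, which is not a member but lies beside CLEC4D, was measured in all groups and averaged -4.54 in YF and -4.77 in OF (limma adjusted p = 0.999).

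CLEC7A, or dectin-1, which recognises fungal beta-glucans, is held by 2 transcripts that have a probe of identical sequence in common. The brighter transcript was at -5.01, -4.71, -4.42 and -4.55 in YF, at -4.82, -5.25, -5.06 and -4.35 in OF and at -4.48, -4.12 and -4.66 in the contemporary cows. These values overlapped between all groups. The OF minus YF difference was -0.20 (SE 0.22, limma adjusted p = 0.999). The second transcript differed by 0.04 (SE 0.24). The sign of either turned under some alternatives, in 1 of 16 for the brighter and 3 of 16 for the second.

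The inhibitory receptors CLEC4A and CLEC12A carry an ITIM, a motif that recruits phosphatases and dampens activation. CLEC4A, or DCIR, ranged from -6.74 to -5.78 in YF, from -6.96 to -5.83 in OF and from -7.08 to -5.45 in the contemporary cows, with a difference of -0.17 (SE 0.30) for OF minus YF, whose sign turned in 2 of 16 alternatives. Only 1 of its 2 probes was well above background, on all 12 arrays. That probe alone was at -4.37, -4.85, -4.78 and -5.08 in YF, at -4.86, -4.96, -5.19 and -5.43 in OF and at -4.25, -4.46 and -5.28 in the contemporary cows, and the groups overlapped there too. On that probe alone OF minus YF was -0.34 (SE 0.20), and on the mean of both it was -0.41 without OF 0245.

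CLEC12A, or MICL, which recognises uric acid crystals of dying cells, varied little among the clones, with an SD of 0.17 in YF and 0.14 in OF. Its levels were -2.09, -2.33, -2.09 and -2.43 in YF and -2.09, -2.23, -2.28 and -2.43 in OF, a difference of -0.02 with an interval from -0.35 to 0.31, whose sign turned in 5 of 16 alternatives. The contemporary cows stood at -1.73, -1.71 and -1.47, with 1111 at -1.41. All 4 were above all 8 clones. The difference was 0.60 (SE 0.17) from YF and 0.62 (SE 0.16) from OF, and it did not pass adjustment over all transcripts (limma adjusted p = 0.9999 and 0.904). It stayed between 0.50 and 0.68 over all alternatives for both comparisons. Of the monocyte and macrophage markers, 12 of 12 tested were higher in the contemporary cows than in YF (median 0.37). Against OF 12 of 12 were higher (median 0.47), with 0 past the adjusted threshold in either. The median of all transcripts was -0.02 and -0.04. Neutrophil and endothelial markers were also higher than in YF, in 12 of 12 (median 0.47) and 10 of 10 (0.45). Against OF these were 6 of 10 and 9 of 10. Lymphocyte markers had medians of 0.05 against YF and -0.10 against OF. The part of the monocyte and macrophage markers in the CLEC12A values was not tested.

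The remaining members with a probe were CLEC1A, CLEC1B and CLEC3B. CLEC1A, a receptor of endothelial and myeloid cells that recognises fungal melanin, was at -0.57, -0.87, -0.72 and -1.72 in YF, at -0.82, -1.50, -1.53 and -1.38 in OF and at -0.33, -0.09 and -0.73 in the contemporary cows. The contemporary cows stood above all OF but overlapped YF. Their difference from OF was 0.92 (SE 0.24, limma adjusted p = 0.904), and that between OF and YF was -0.34 (SE 0.28, limma adjusted p = 0.999). The endothelial markers, 10 of 10 measured on all 11 arrays, had a mean level of -0.82 to 0.08 in the contemporary cows, -0.79 to -0.47 in OF and -1.36 to -0.60 in YF, and their part in the CLEC1A values was not tested.

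CLEC3B, or tetranectin, a secreted protein of matrix and plasma that binds plasminogen, ranged from 1.17 to 1.91 in YF, 1.32 to 1.71 in OF and 1.74 to 1.99 in the contemporary cows. OF minus YF was -0.15 (SE 0.19), whose sign turned in 1 of 16 alternatives. The contemporary cows stood above all OF, by 0.35 on average (SE 0.17, limma adjusted p = 0.912).

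CLEC1B, or CLEC-2, the podoplanin receptor of platelets, has 2 transcripts on the array, each with a probe at background. The remaining probe of the dimmer transcript is shown because it was well above background in 3 of 3 contemporary cows and in no OF or YF. Capitals again mark its longest run shared with a probe of another gene.

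CLEC1B probe 2: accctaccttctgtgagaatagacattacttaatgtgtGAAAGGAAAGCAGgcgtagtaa

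Its level was -5.60, -6.11 and -6.27 in the contemporary cows and -6.69 in 1111. In OF it was -6.38, -6.83, -8.11 and -7.19, and in YF -8.45, -8.38, -8.02 and -8.76. OF and YF overlapped, since OF 0245 stood below YF 1072. The 3 contemporary cows kept stood above all OF and YF, though narrowly above OF 0233, and 1111 stood below OF 0233. As this probe was at background in all OF and YF, no fold or test is given. The brighter CLEC1B transcript was measured in 3 of 3 contemporary cows, 3 of 4 OF and 2 of 4 YF, and averaged -6.64 ± 0.42 (SD, n = 3), -6.97 ± 0.25 (SD, n = 4) and -7.49 ± 0.66 (SD, n = 4). It entered the comparisons only through the contemporary cows, where it was high, and is given no test. The platelet markers had mean levels of -5.26 to -4.99 in the contemporary cows, -5.69 to -5.10 in OF and -5.81 to -4.99 in YF, which was not tested as a part of the CLEC1B values.

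**Figure D2:**
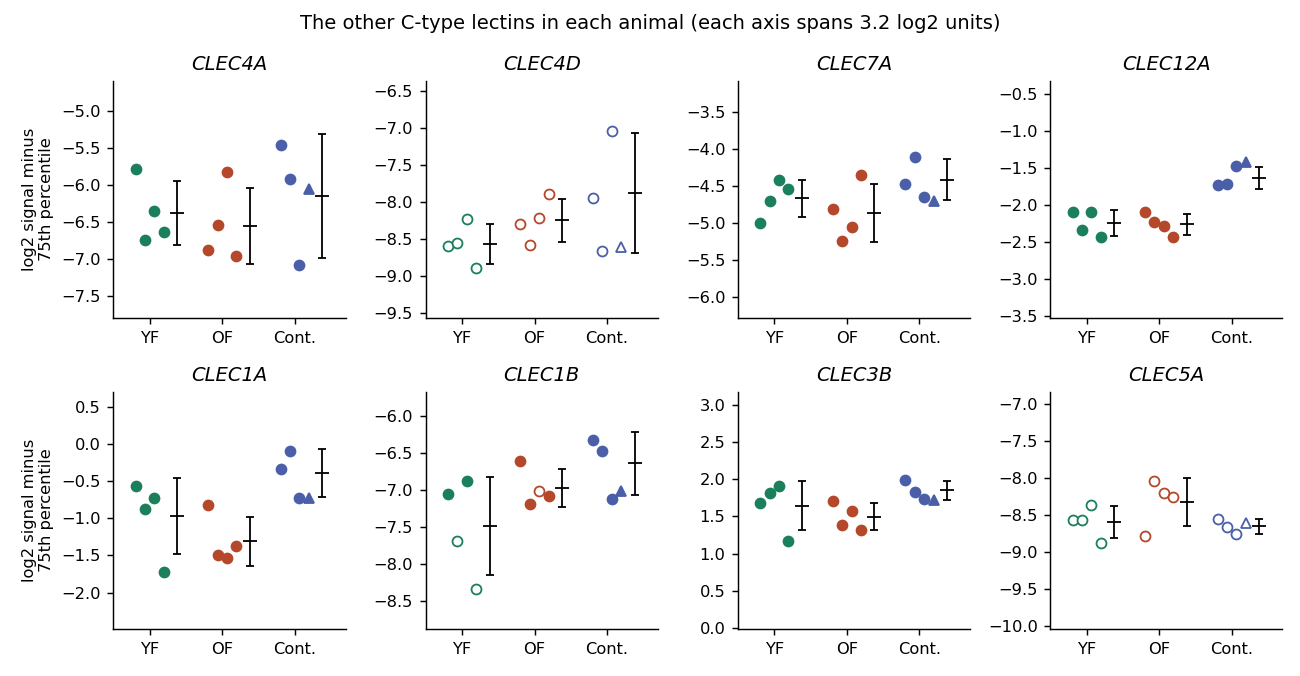
The other members in each animal, as log2 intensity minus the 75th percentile of the array, with YF, OF and contemporary cows side by side; points are animals, triangles contemporary 1111, open symbols not well above background, and bars the mean ± SD without 1111, with each axis spanning the same number of log2 units. CLEC12A in the contemporary cows (-1.73 to -1.41) stood above every OF and YF, and CLEC4D and CLEC5A stayed at background.

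Besides CLEC4E, the members measured on all arrays of all groups were CLEC4A, CLEC7A, CLEC12A, CLEC1A and CLEC3B, the brighter transcript being taken for CLEC7A. Between OF and YF none of the 5 passed at an adjusted p under 0.05, against 0% of the 19755 transcripts tested, and none had an unadjusted p under 0.05, against 2.42% of transcripts. All 5 were lower in OF, with a median of -0.17 beside 0.01 for all transcripts, and in none were the groups apart (1.53% of transcripts were). That shared direction depended on the processing, since with normexp background correction CLEC4A (0.07), CLEC7A (0.05) and CLEC12A (0.02) were higher in OF. The fold change rank ordering statistic (FCROS) used by the study in place of limma, with at least a 1.5-fold change, called none of the 5, against 4.79% of transcripts.

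Between contemporary cows and YF none of the 5 passed the adjusted threshold (0% of 19993 transcripts). CLEC12A had an unadjusted p under 0.05, against 3.03% of transcripts. All 5 were higher, with a median of 0.25 beside -0.02 for all transcripts. CLEC12A did not overlap YF (1.51% of transcripts were wholly higher) and was the 1 member of the 5 that FCROS called higher (1.96%). Between contemporary cows and OF again none passed (0% of 19914 transcripts). CLEC12A and CLEC1A had an unadjusted p under 0.05 (4.57% of transcripts), and all 5 were higher, with a median of 0.45 beside -0.04. CLEC12A, CLEC1A and CLEC3B did not overlap OF (2.86% of transcripts were wholly higher), and FCROS called CLEC1A higher (3.53%). Each pair of comparisons shares the arrays of 1 group. The 3 contemporary cows kept were all on slide 2, with 2 YF and 3 OF, and within slide 2 the CLEC4E difference from YF was -0.85.

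**Figure D3:**
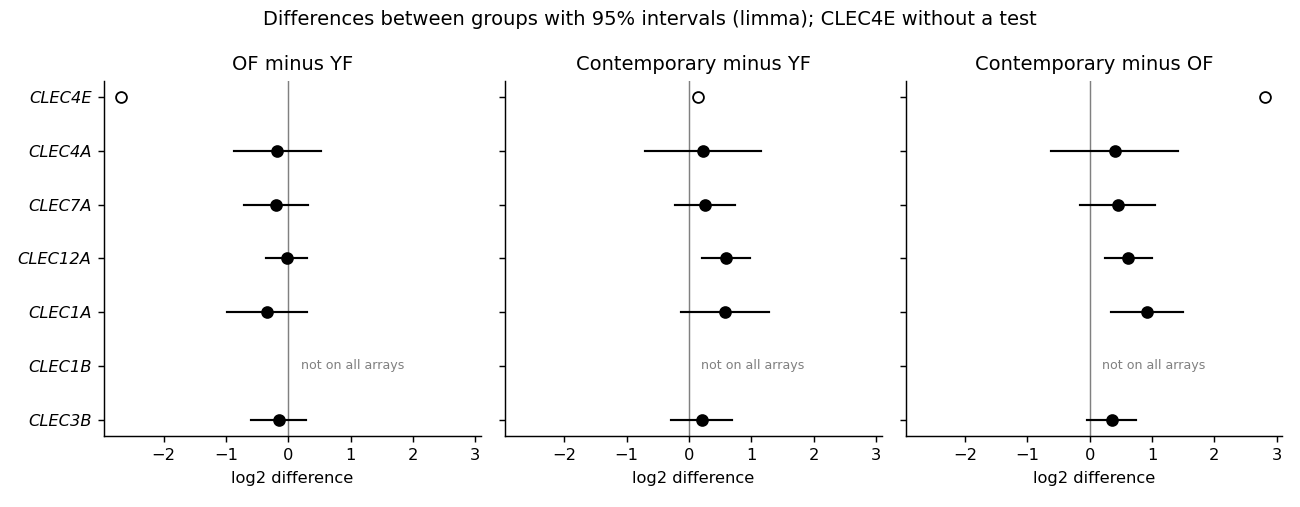
Log2 difference between group means (x axis) in the 3 comparisons, as filled points with the 95% interval from limma (lines) for members measured on all arrays, and as open points with no interval for CLEC4E, which was chosen by its values. CLEC4E lay at -2.68, 0.14 and 2.82, and the intervals of CLEC12A and CLEC1A lay to the right of 0 for contemporary minus OF.

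Genes of the pathway below CLEC4E were present in the tissue in all animals. All 23 listed signalling genes had a probe well above background on all 11 arrays. FCER1G, the adaptor that carries the CLEC4E signal, was at -1.11, -1.24, -1.12 and -1.74 in YF and at -1.09, -1.19, -1.83 and -1.67 in OF. In the contemporary cows it was at -2.11 in 1068, -1.31 in 1128 and -0.67 in 1129, the lowest and the highest of the 11 arrays being the cows with CLEC4E at -6.29 and -0.79. Other animals went the other way. FCER1G was at -1.74 in YF 1127, where CLEC4E was highest (0.14), and at -1.09 in OF 0233, with CLEC4E at -5.54. Its r with CLEC4E was 0.35 over the 11 arrays and 0.34 with group means removed. OF minus YF was -0.14 for FCER1G, 0.01 for SYK, 0.17 for CARD9, -0.15 for BCL10 and -0.03 for MALT1 (limma adjusted p of 0.999 or above for each). Of the 23, 0 passed in either direction, 9 were higher and 14 lower in OF, with a median of -0.04. No signalling gene had an unadjusted p under 0.05.

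Of the 17 cytokine and enzyme genes that act as outputs of the pathway and had a probe, 11 were tested and 0 passed the adjusted threshold by limma, with 1 higher and 1 lower at an unadjusted p under 0.05 (2.42% of all transcripts in both directions). Of these 8 were higher and 3 lower in OF, with a median of 0.53 beside 0.01 for all transcripts, and FCROS called 3 higher and 1 lower (4.79% in both directions). IL12A entered only through YF, where it was higher on average, and CXCL8 only through OF. A call of either in these counts is a description, not a test. CXCL1, a neutrophil chemokine, was at -2.42, -0.49, -1.55 and -1.78 in YF and at -0.35, -1.03, 0.20 and 0.82 in OF, a difference of 1.47 (SE 0.49, limma adjusted p = 0.999). IL12A, a subunit of interleukin 12, was at -3.71, -2.53, -3.57 and -5.15 in YF and at -4.43, -4.77, -5.36 and -7.49 in OF. The last of these, OF 2258, was not well above background, and the groups overlapped.

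CCL3 and CCL4, chemokines of activated macrophages, rested on 1 animal. CCL4 was at 0.91 in OF 2258 and between -4.71 and -3.41 in the other OF, beside -5.83 to -3.27 in YF. The difference was 1.95 (SE 1.17, limma adjusted p = 0.999), and 0.72 without OF 2258. For CCL3 it was 1.51, and 0.41 without that animal, the same animal in which CLEC4E was at background.

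Across animals CLEC4E did not rise with the 6 other members compared. After removal of group means, r with CLEC4E was -0.32 for CLEC4A, -0.29 for CLEC7A, -0.07 for CLEC12A, -0.45 for CLEC1A, -0.67 for CLEC1B, which was measured on 8 of the 11 arrays, and -0.53 for CLEC3B (n = 11, 6 relations). The Spearman values were -0.24, -0.09, -0.14, -0.40, -0.71 and -0.55 in the same order. The lowest adjusted p was 0.311 for r and 0.274 for rho, both for CLEC1B, by exact two-sided permutation within groups (3456 arrangements). Without the 2 animals farthest from the median CLEC4E deviation, contemporary 1068 and YF 1072, r was 0.06, -0.37, -0.13, -0.53, -0.53 and -0.31. Within slide 2 (n = 8) it was -0.51, -0.15, 0.13, -0.38, -0.58 and -0.50.

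The transcripts whose level was most like CLEC4E over the 11 arrays were of another kind. The 10 named genes with the highest Pearson r were C1ORF192 (CFAP126 in RefSeq), ZDHHC1, MGC152281, C1orf87, IQCK, ZMYND12, WDR52, ZBBX, TTC6 and C16orf89. For the first, r was 0.969, and for the last 0.931. With group means removed r was 0.972 for C1ORF192, 0.965 for C1orf87, 0.954 for TTC6 and 0.920 for ZBBX. ZDHHC1 and ZMYND12 are named through the dimmer of their transcripts (r = 0.960 and 0.946). Their brighter transcripts had r of 0.732 and 0.823. CFAP126 and WDR52 (also called CFAP44) encode proteins of cilia and flagella. All r are descriptions over the same 11 arrays.

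Once those names had been seen, 30 genes of motile cilia were listed from general knowledge (the regulators FOXJ1 and MCIDAS, axonemal dyneins, radial spoke proteins, tektins and others). Of the 27 measured in at least 1 whole group, the median r with CLEC4E was 0.79 (range 0.32 to 0.92), and 10 exceeded 0.8, beside a median of -0.08 and 1.45% over 0.8 for the 20163 transcripts compared. With group means removed the median was 0.77. It ranged from 0.71 to 0.88 when each animal was left out, and was 0.75 within slide 2.

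TEKT1, a tektin of the axoneme, had an r of 0.92, CCDC40, an assembly factor of the inner dynein arm, 0.89, and DNAI1, an intermediate chain of the outer dynein arm, 0.89. DNAI1 was at -2.93, -1.32, -3.68 and -0.76 in YF, at -2.53, -2.28, -1.95 and -4.86 in OF and at -2.71, -0.96 and -1.17 in the contemporary cows. The order within YF was that of CLEC4E. In OF, 2258 was the lowest for both genes.

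Lists of cell types fixed with the other gene lists held no gene with r over 0.8 in either form. The raw r carries the group differences by which CLEC4E was chosen, so each median is followed by that with group means removed. It was 0.37 and 0.19 for 12 monocyte and macrophage markers, with C1QA highest at 0.71 and CD68 lowest at -0.39 in the raw values. It was -0.12 and -0.03 for 12 neutrophil markers, 0.15 and 0.18 for 7 dendritic cell markers and 0.08 and 0.15 for 8 lymphocyte markers. For 8 markers of endometrial epithelium it was 0.43 and 0.44, and for 13 of stroma -0.12 and -0.28. For 11 of smooth muscle it was -0.57 and -0.37, and for 10 of endothelium -0.34 and -0.64. For the 23 signalling genes of the CLEC4E pathway it was 0.00 and -0.07, and for the 12 outputs measured in at least 1 whole group -0.51 and -0.50. For 25 further C-type lectins it was 0.04 and -0.22, with ASGR2 highest at 0.59 and CLEC16A lowest at -0.67 in the raw values. CLEC10A, measured on 8 of the 11 arrays but in no whole group, had r of 0.75 and 0.73.

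**Figure D4:**
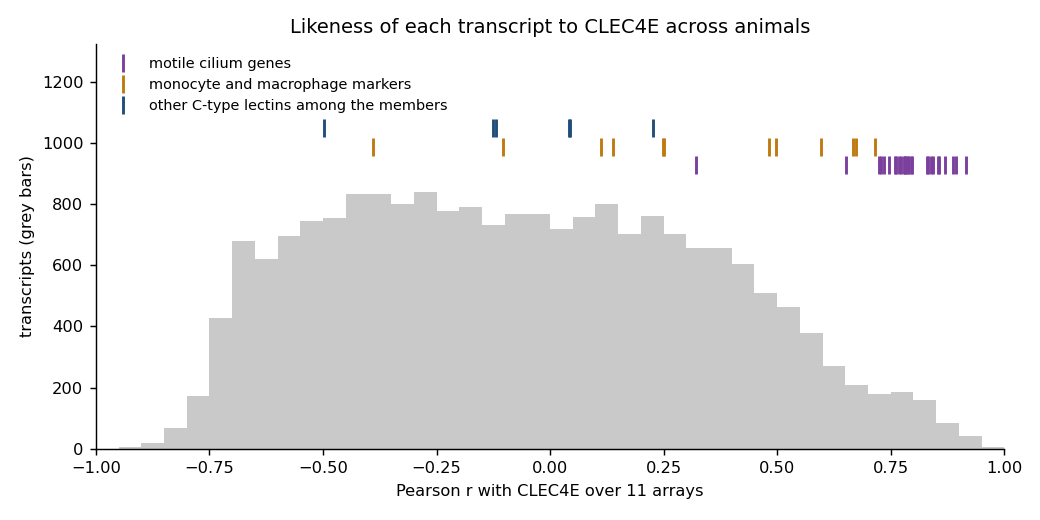
Pearson r with CLEC4E over 11 arrays (x axis) for 20163 transcripts (grey bars, number of transcripts), with marks for motile cilium genes, monocyte and macrophage markers and the other members. The motile cilium genes had a median of 0.79, and the 6 other members lay between -0.50 and 0.23.

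The mean level of the cilium genes was -0.66 in YF 1127 and -3.23 in YF 1072, the highest and the lowest YF for CLEC4E. In OF it was -2.29, -2.08, -1.58 and -4.78, and in the contemporary cows -1.98, -1.07 and -1.21, with -1.45 in 1111. Contemporary 1068 stood apart, with a cilium level above 3 of the 4 OF but CLEC4E at -6.29, where probe 1 was not well above background. Smooth muscle markers also differed between biopsies, at 3.27 in OF 0234 and 4.93 in OF 2258 beside -0.70 to 0.89 in the other 9 animals. Epithelial markers were at -0.42 in OF 2258 and 0.47 to 2.45 in the others. The part of these in the CLEC4E difference was not tested. Without OF 2258 the CLEC4E difference was -1.85. Mast cell markers stood at -4.37 to -4.02 in YF, at -5.03 to -4.82 in OF and at -4.93 to -3.84 in the contemporary cows, so that OF and YF did not overlap. Of the 6 tested 5 were lower in OF at an unadjusted p under 0.05, against 2.42% of all transcripts, and 0 passed the adjusted threshold. In 4 of the 6 all OF stood below all YF, while 1.53% of transcripts did not overlap in either direction. The list holds CPA3, which the study had named from these arrays among the genes most under-expressed in OF, so these counts are descriptions. MS4A2 was at background on all arrays. The median r with CLEC4E was 0.51, and 0.26 with group means removed. Their part in the CLEC4E difference was not tested either. Monocyte and macrophage markers ranged from -2.86 to -2.59 in YF, -3.01 to -2.71 in OF and -2.67 to -2.24 in the contemporary cows, with 12 of 14 measured on all 11 arrays and none at background on all of them.

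**Figure D5:**
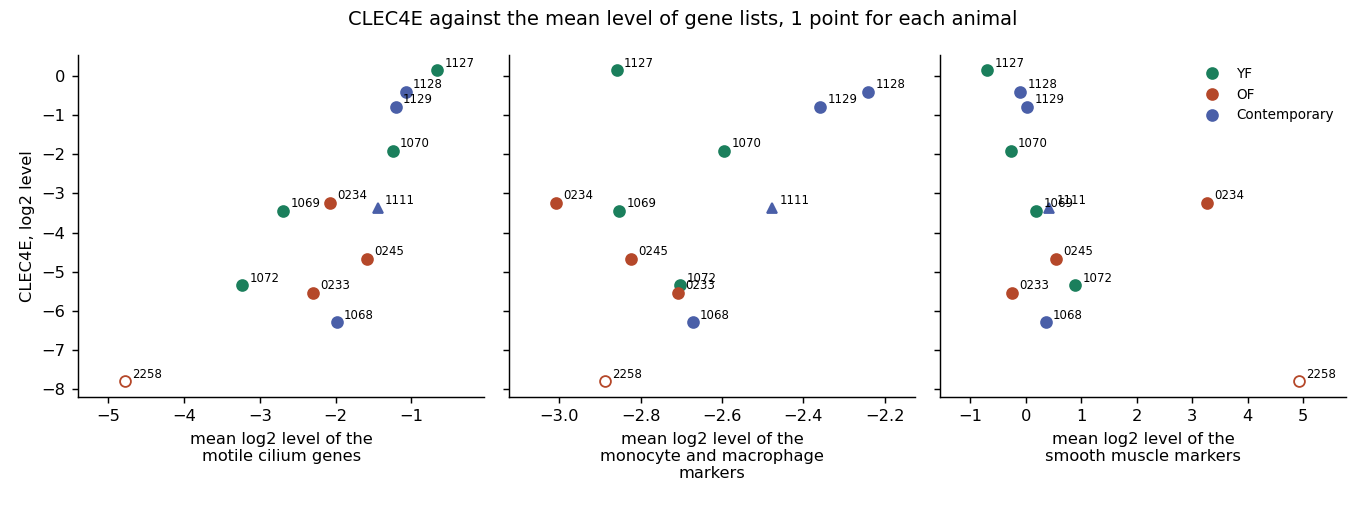
CLEC4E level (y axis, log2) against the mean log2 level of motile cilium genes, of monocyte and macrophage markers and of smooth muscle markers, with 1 labelled point for each animal; the triangle is contemporary 1111 and the open point is not well above background. CLEC4E rose with the cilium genes from OF 2258 (-4.78, -7.79) to YF 1127 (-0.66, 0.14), with contemporary 1068 below the others of like cilium level.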

How the data were processed

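Total RNA of 12 endometrial biopsies was hybridised to a custom bovine array with Cy3. The authors deposited 1 Agilent Feature Extraction (version 10.7.3.1) table per array, with mean, background and processed intensity of each spot, the processed intensity being background-subtracted, and no normalization between arrays. Each array held 1319 control spots, which were left out with 66 probes flagged as outliers on any array, leaving 61333 probes. The log2 of processed intensity minus the 75th percentile of the array was averaged per transcript. The groups were compared with limma 3.58.1 (R 4.3.3) over transcripts that at least 1 probe detected above background throughout either group, with Benjamini-Hochberg adjustment over all. Scripts were tested on simulated data. Replicates are animals, and the number of arrays limits the precision. FCROS was rebuilt from pairwise fold changes with a trim of 0.25 at each end. The 10 genes most like CLEC4E were named by Pearson r over 11 arrays, members excluded. The members, gene lists and tests were chosen with earlier results of these data known, and the cilium list after the likeness values. Gene symbols came from the array's annotation, and from RefSeq where it had none. Coordinates are those of the array's annotation on UMD3.1. Alternatives were normexp (offset 50), quantile normalization, median centring, the brightest probe, no filter on dim probes, slide as a block or slide 2 alone, 1 fit for all 3 groups, contemporary 1111 included, FCROS and each animal left out.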

Additional observations from a re-analysis of the deposited data

How the results depend on the processing

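The CLEC4E difference between OF and YF kept its sign in all 16 alternatives, from -3.88 within slide 2 to -1.51 with normexp, and from -3.58 to -1.75 with each animal left out. The number of members passing the adjusted threshold stayed at 0 in every limma alternative of the 3 comparisons, with each animal left out included (0 to 0), as did the number of Mincle signalling and output genes in OF against YF and the number of relations between CLEC4E and the members. With FCROS in place of limma, among the 5 members measured on all arrays CLEC12A was called against YF and CLEC1A against OF. Of all transcripts, 1.96% and 3.53% were called higher in these comparisons of contemporary cows. FCROS calls of CLEC4E and CLEC1B are left out, since CLEC4E was chosen by its values and CLEC1B entered through its high group. Between OF and YF, 0 of the 23 signalling genes and 4 of the 11 output genes tested were called, against 4.79% of all transcripts. Those 11 include IL12A and CXCL8, which each entered through only 1 group, so that this count is a description, not a test. Of the 10 genes most like CLEC4E, 8 stayed among the 10 highest with group means removed, 8 with all 12 arrays and 5 to 9 with each animal left out, the lowest being without contemporary 1068 and 6 without OF 2258. The median r of the cilium genes with CLEC4E, under alternatives chosen after seeing the data, lay between 0.71 and 0.88. The causes were not tested. No paired analysis was possible because the replicate numbers are animal numbers that no groups share. Probes near background, among them CLEC4D, CLEC5A, CLEC1B and 1 probe of CLEC4A, limit what the arrays can show, and with 3 or 4 animals a group only large or steady differences could pass.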

Other observations

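Among 39 further C-type lectin genes with a probe, 20 were well above background on all 11 arrays and 6 on none. Between OF and YF 25 were tested and 0 passed the adjusted threshold by limma. None had an unadjusted p under 0.05, against 2.42% of all transcripts. FCROS called 1 (CD69, a lymphocyte activation marker), against 4.79% of all transcripts. COLEC10, a secreted collectin that binds microbial sugars, was at -4.70, -4.85 and -4.27 in the contemporary cows, -5.16, -5.94, -6.23 and -7.55 in OF and -5.48, -5.77, -5.54 and -5.28 in YF. The contemporary cows stood above all clones, and 1111, at -4.91, did so too. OF 0245 and 2258 were not well above background. The difference from YF was 0.91. COLEC10 was named after its values were seen, so no test of it is given. Of the 25 lectins tested in each comparison of contemporary cows, 0 passed the adjusted threshold by limma. Of these 25, 1 stood wholly above YF (1.51% of transcripts did) and 4 wholly above OF (2.86%).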
